A study of Mus musculus with 12 samples.

Results

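The genes described here are 10 erythroid genes in sorted mouse haematopoietic stem cells (HSCs): the transcription factors Gata1 and Klf1, the receptors Epor and Tfrc, the carbonic anhydrases Car1 and Car2, and the adult globins Hba-a1, Hba-a2, Hbb-bs and Hbb-bt. They were taken by name from the 49585 genes counted in each sample, and all 10 were found. RNA-seq was available for 6 wild-type (WT) and 6 Pon2-/- mice, both labelled C57BL/6J and 10 to 14 weeks old. WT mice came from Charles River. In Pon2-/- mice the gene for paraoxonase 2, an intracellular antioxidant enzyme, is disrupted by a trap cassette with β-geo and loxP sites that sits in its second intron. Bone marrow cells were sorted as Lin-, Sca1+, ckit+, CD135- and CD150+, a gate that the labels call LT-HSC and in which, by the study's own account, MPP2 progenitors are present beside LT-HSCs. From each mouse 8 wells of 10 cells were sequenced by Smart-seq2, a full-length cDNA method without strand information, and each mouse has 1 count file.

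Red cell formation is driven by GATA1 and KLF1, which activate the globin genes, the haem pathway and the genes of the red cell membrane. EPO receptor signalling keeps erythroid progenitors alive, and the transferrin receptor supplies the iron for haem. Stem cells carry low amounts of such lineage transcripts before commitment, which is known as lineage priming, whereas globin RNA in quantity belongs to erythroblasts.

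Levels of the erythroid genes spanned a wide range. Car2 was abundant in every sample, with nearly equal medians in the genotypes, and Car1 was at 0 throughout. Gata1, Klf1, Epor, Tfrc, Hbb-bs and the α-globins were low, varied widely among mice of the same genotype and overlapped between genotypes. Hbb-bt was the exception: all 6 WT samples held it, between 78 and 884 counts, and the 6 Pon2-/- samples held 17 counts in all. With edgeR's quasi-likelihood test over 11848 genes, 8 of the 10 erythroid genes were tested and 0 were called at an FDR below 0.05 with a fold change above 2, where 0.203% of all tested genes were called. At an unadjusted p below 0.05 the test picked 1 of the 8, Hbb-bt, against 3.13% of all tested genes. Hbb-bt was also the only one of the 8 whose genotypes did not overlap, which held for 0.633% of all tested genes. Under the same thresholds DESeq2 and limma voom each called 1 erythroid gene, again Hbb-bt, where they called 1.79% and 0.194% of all genes tested. Hba-a2 and Car1 were too low to be tested.

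Sequencing depth was similar, with 12967791 to 24228280 counts per sample. Pon2 ranged from 56.4 to 202 counts per 1000000 counts of the scaled library (CPM) in WT samples and from 1.16 to 33.1 CPM in Pon2-/- samples, without overlap (edgeR log2 fold change -2.13, SE 0.57, FDR 0.586; exact permutation p = 0.00216, two-sided). Kit, the gene for the sort marker ckit, had a median of 454 CPM in WT and 404 CPM in Pon2-/- samples. Of the stem cell identity genes, which were not sorted on, Hlf had medians of 312 and 366 CPM and Meis1 of 328 and 298 CPM. Flt3, the gene for CD135, had a median of 31.4 CPM in WT and 50.6 CPM in Pon2-/- samples although the gate excluded the protein. Granulocyte and monocyte markers set some libraries apart. The summed level of 10 such genes ran from 315 to 10410 CPM in WT and from 302 to 16830 CPM in Pon2-/- samples, and 4 libraries, WT replicates 2, 3 and 4 and Pon2-/- replicate 1, exceeded 5000 CPM. S100a8, Ngp and Camp were each at 0 in some libraries and above 1000 CPM in others. Summed markers ran from 220 to 308 CPM in WT and from 206 to 341 CPM in Pon2-/- samples for megakaryocytes, from 27.2 to 84.4 and from 19.9 to 153 CPM for macrophages, and from 25.5 to 348 and from 58.8 to 868 CPM for B cells. T cell markers reached at most 39.7 and 57.7 CPM, with Cd3e and Cd8a at 0 in every sample, and mast cell and basophil markers at most 63.8 and 42.4 CPM. None of the marker lists held a gene called by edgeR, where 0.203% of all tested genes were called. The part of these markers in the erythroid values was not tested beyond leaving out the 4 libraries.

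**Figure D1:**
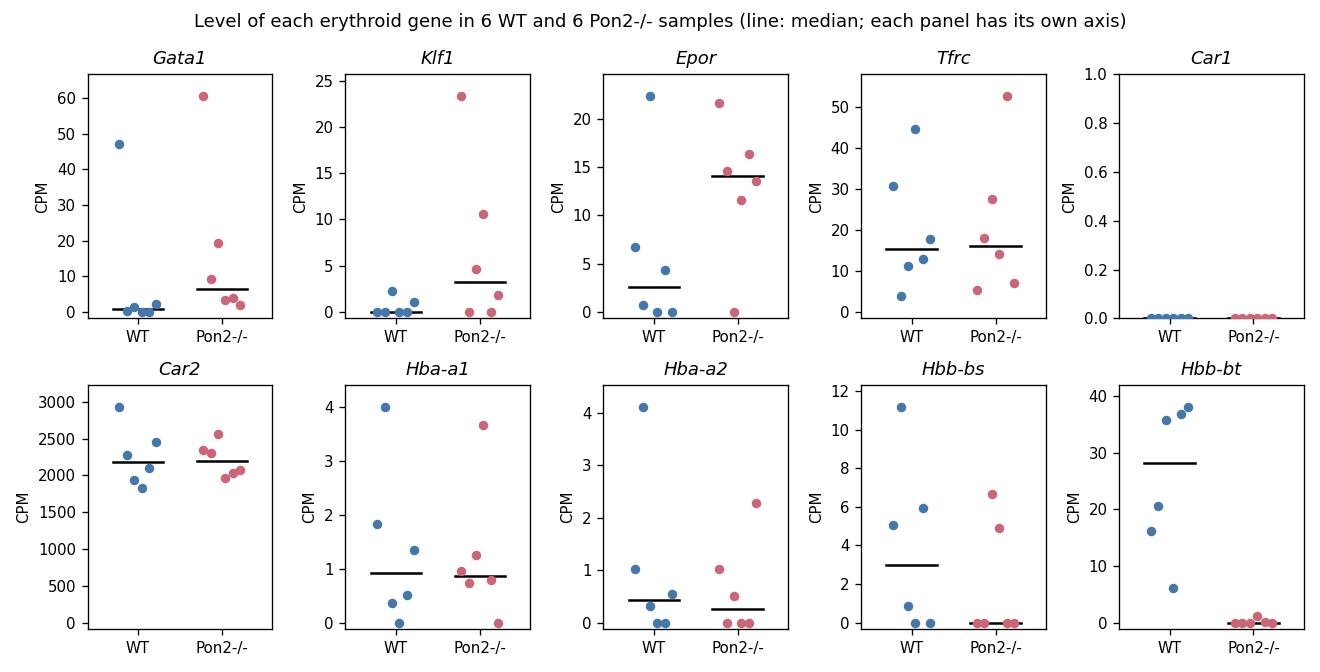
CPM of the 10 erythroid genes in each of 6 WT (blue) and 6 Pon2-/- (red) samples, with a line at the median and a separate axis for each gene. Only the panel of Hbb-bt shows separated genotypes, Car2 has medians of 2185 and 2191 CPM, and Car1 is at 0 in all 12 samples.

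Gata1 (X:7959260-7978071, minus strand, GRCm38) encodes the master transcription factor of erythroid and megakaryocyte cells. WT samples held 0 to 1110 counts of it, with a median of 0.73 CPM and a highest value of 47.1 CPM, and Pon2-/- samples held 32 to 1014 counts, with a median of 6.45 CPM and a highest value of 60.6 CPM. In each genotype replicate 1 stood far above the rest. Counts were present in 4 WT samples and in all Pon2-/- samples, and 5 of the 6 WT samples lay at or below 2.33 CPM. The groups overlapped (edgeR log2 fold change 0.94, SE 1.62, FDR 1.0; exact permutation p = 0.0714). Single libraries moved the fitted change: it was 4.41 without WT replicate 1 and turned to -0.18 without Pon2-/- replicate 1. It was -1.14 without the 4 libraries rich in granulocyte markers. In none of these fits did Gata1 pass the threshold.

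Klf1 (8:84901928-84905291, plus strand) encodes the factor that binds CACCC boxes of erythroid promoters. Counts were present in 2 WT samples, at 2.22 and 1.04 CPM, and were 0 in the other WT samples. Counts were present in 4 Pon2-/- samples, at 23.4, 10.6, 4.61 and 1.80 CPM. The highest values were thus all from Pon2-/- mice, but 2 Pon2-/- samples had none and the groups overlapped. The fitted log2 fold change was 3.60 with an SE of 1.99 (edgeR FDR 1.0; exact permutation p = 0.145), and it stayed between 2.62 and 4.97 in the 20 alternative fits that held Klf1, with a lowest FDR of 0.51. There were 6 samples with counts of both Gata1 and Klf1, and Pearson's r of their log2 CPM over the 12 samples was 0.455, which is given as a description, since 6 of the samples had no Klf1 count.

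Epor (9:21958897-21963506, minus strand) encodes the erythropoietin receptor. WT samples ranged from 0 to 22.3 CPM with a median of 2.55 CPM, and Pon2-/- samples from 0 to 21.6 CPM with a median of 14.1 CPM. In 5 Pon2-/- samples Epor lay between 11.6 and 21.6 CPM, and in replicate 3 it had 0 counts. Only 1 WT sample, replicate 3 at 22.3 CPM, reached that band. The difference did not pass the test (edgeR log2 fold change 1.19, SE 1.56, FDR 1.0; exact permutation p = 0.21). The log2 fold change was 2.44 without WT replicate 3, 2.997 with limma voom and 3.60 with a replicate block, and Epor was called in none of the alternatives that held it.

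Tfrc (16:32608920-32632794, plus strand), the transferrin receptor of dividing and haem-making cells, was the only receptor with counts in all 12 samples. It ranged from 3.96 to 44.6 CPM around a median of 15.2 CPM in WT samples and from 5.26 to 52.6 CPM around a median of 16.1 CPM in Pon2-/- samples. The ranges covered each other almost entirely, and the fitted log2 fold change was 0.04 with an SE of 0.73 (edgeR FDR 1.0; exact permutation p = 0.994).

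Car2 (3:14886273-14900770, plus strand), a cytosolic carbonic anhydrase of red cells and of several other cell types, differed from the other erythroid genes in both level and spread. WT samples ran from 1834 to 2931 CPM with a median of 2185 CPM, and Pon2-/- samples from 1966 to 2559 CPM with a median of 2191 CPM. Each Pon2-/- value fell inside the WT range. The log2 fold change was -0.03 with an SE of 0.12 (edgeR FDR 1.0; exact permutation p = 0.898), the smallest standard error of the 8 tested erythroid genes. Car1 (3:14766216-14808368, minus strand), the carbonic anhydrase used as a marker of committed erythroid progenitors, had 0 counts in all 12 samples. A floor of 3 counts per library corresponds to 0.124 to 0.231 CPM, which is counting error only. Nearly all words of Car1 are specific to it, since 93.3% of the 75-base words of its transcript were found in no other annotated gene. Of 14 other carbonic anhydrases, 4 were tested and 0 were called, where 0.203% of all tested genes were called. Car9, a membrane isoform, had medians of 42.8 CPM in WT and 30.7 CPM in Pon2-/- samples, Car3 of 30.2 and 29.7 CPM, Car13 of 12.1 and 22.1 CPM, and Car7 of 3.43 and 1.41 CPM, all with overlapping ranges.

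The 4 adult globins form near-identical pairs. This decides what a count on one of them means, so the stretch in which each pair differs is shown. The coding sequences of the α-globins Hba-a1 (11:32283511-32284465) and Hba-a2 (11:32296489-32297298), both on the plus strand, are 426 bases long without the stop codon and differ at 1 base, C381T, counted from the first base of the start codon with the base of Hba-a1 first. Those of the β-globins Hbb-bs (7:103826534-103828096) and Hbb-bt (7:103812524-103813996), both on the minus strand, are 441 bases long and differ at 1 base, C417T, with the base of Hbb-bs first. Both differences lie in exon 3, and the differing base is in capitals in the 49 coding bases printed for each gene, taken from GENCODE M21 transcripts (GRCm38).
Hba-a1, 11:32284319-32284367: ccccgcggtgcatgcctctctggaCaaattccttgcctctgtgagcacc
Hba-a2, 11:32297136-32297184: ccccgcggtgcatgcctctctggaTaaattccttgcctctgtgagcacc
Hbb-bs, 7:103826668-103826716: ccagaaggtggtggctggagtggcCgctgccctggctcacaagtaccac
Hbb-bt, 7:103812659-103812707: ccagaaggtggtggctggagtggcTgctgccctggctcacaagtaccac

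Reads that fit both genes of a pair equally cannot be assigned to either. Of the 75-base words of the transcript, 43.4% of Hbb-bt, 35.7% of Hbb-bs, 37.8% of Hba-a1 and 19.0% of Hba-a2 were found in no other annotated gene, and in each case the gene sharing the remainder was the partner of the pair. For Gata1, Klf1, Epor, Tfrc and Car2 no word was shared with another gene, and none of the 10 genes overlaps an exon of another annotated gene. Counts of the globins therefore cover part of each transcript, and their levels are uncertain in a way that those of the other erythroid genes are not.

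Hbb-bt, an adult β-globin gene, had 379, 388, 884, 78, 506 and 620 counts in WT replicates 1 to 6. Pon2-/- replicates 4 and 5 had 16 and 1 counts and the other 4 Pon2-/- samples had 0. In CPM, WT samples ranged from 6.11 to 38.1 with a median of 28.1, and the highest Pon2-/- sample reached 1.11. Every Pon2-/- sample was thus below every WT sample. Hbb-bt passed the filter on low counts through its WT samples, and likewise the filter of 10 counts in every sample of a genotype. Its fitted log2 fold change was -7.04 with an SE of 1.65, an unadjusted p of 0.000829 and an FDR of 0.265 in edgeR, and the exact permutation p was 0.00216, the smallest that 924 relabellings can give. The call depended on the procedure: the FDR was 1.03e-06 with DESeq2 (log2 fold change -7.07), 0.0109 with limma voom (-8.42), 0.0482 when 10 counts were required in every sample of a genotype (-7.05), and 0.00559 without Pon2-/- replicate 4 (-10.58). Of all genes tested, the last 2 of these fits called 0.339% and 0.229%. The change was negative in all 20 alternatives that held the gene. Without the 4 libraries rich in granulocyte markers it was -7.03 (edgeR FDR 0.899).

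Hbb-bs, the other adult β-globin gene of this locus, was at 0 in samples of both genotypes. WT samples held 119, 212, 22, 0, 82 and 0 counts, and Pon2-/- replicates 3 and 4 held 117 and 71 counts with 0 in the other 4. The highest Pon2-/- value, 6.65 CPM, exceeded that of 5 WT samples. The groups overlapped, with a log2 fold change of -0.995 and an SE of 1.88 (edgeR FDR 1.0; exact permutation p = 0.372). That value was -0.30 without WT replicate 2, -1.97 without Pon2-/- replicate 3, -1.53 without Pon2-/- replicate 4, -2.03 with limma voom and -5.43 with a replicate block, and Hbb-bs was called in none of them. The 2 genes took different shares of the β-globin counts: Hbb-bt held 86.8% of the WT total of both genes (exact 95% binomial interval 85.6 to 87.9%) and 8.29% of the Pon2-/- total (4.91 to 12.9%), intervals that cover counting error only. All Pon2-/- counts of Hbb-bs and 16 of the 17 of Hbb-bt came from replicates 3 and 4, and the Pon2-/- share was 19.3% without replicate 3 and 0.847% without replicate 4. With a WT sample left out the WT share was 82.7 to 91.7%. Hbb-bt held at least 64.7% of these counts in each of the 6 WT samples, and in the 2 Pon2-/- samples with counts on Hbb-bs it held 0 and 18.4%. With the pair summed to 1 row, the edgeR log2 fold change was -3.79 (FDR 1.0).

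The α-globins were low in both genotypes. Hba-a1 ranged from 0 to 76 counts in WT and from 0 to 53 counts in Pon2-/- samples, with 5 samples of each genotype above 0. Its medians were 0.93 and 0.87 CPM, the fitted log2 fold change was -0.13 with an SE of 1.099 (edgeR FDR 1.0; exact permutation p = 0.968), and the sign turned in 4 alternatives. Hba-a2 had counts in 4 WT and 3 Pon2-/- samples, at most 78 and 38 counts (exact permutation p = 0.632). Over both α-globins the median was 1.29 CPM in WT and 1.87 CPM in Pon2-/- samples, whereas the mean was 2.35 ± 3.02 CPM in WT and 1.87 ± 1.09 CPM in Pon2-/- samples (SD, n = 6 each). With the pair summed to 1 row, the edgeR log2 fold change was -0.33 (SE 0.99, FDR 1.0). The 4 adult globins together held 3566 counts in the WT group, 2855 of them on Hbb-bt, and 394 counts in the Pon2-/- group. Their sum was 31.7 ± 14.2 CPM in WT (SD, n = 6) and 3.99 ± 3.996 CPM in Pon2-/- samples (SD, n = 6). WT replicate 4, at 6.11 CPM, was the only WT sample inside the Pon2-/- range, whose highest value was 9.71 CPM in replicate 4. The difference in the sum lay mostly on Hbb-bt, while the α-globins overlapped between genotypes. In bulk samples the number of globin-bearing cells, the globin RNA per cell and other sources of this difference cannot be told apart. None of them was tested.

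**Figure D2:**
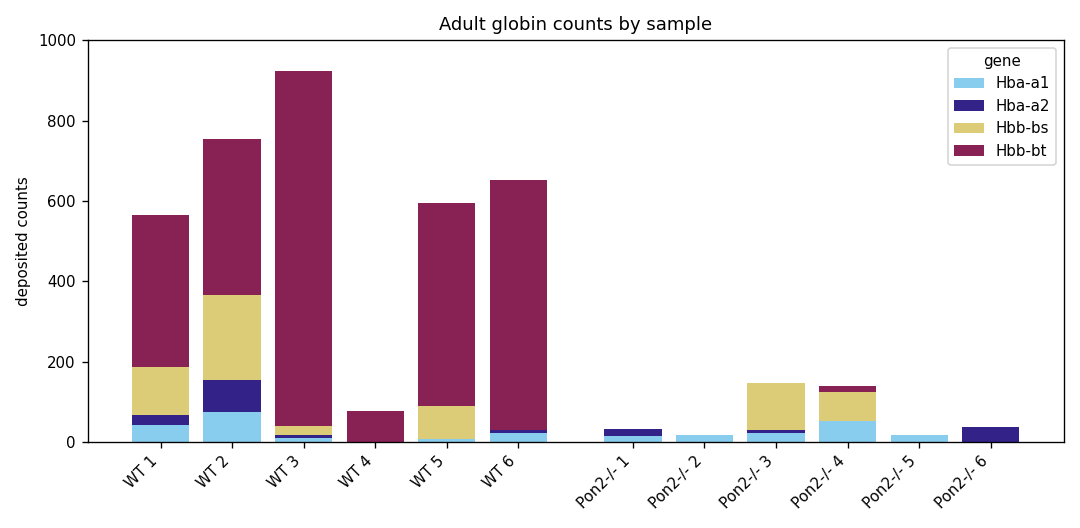
Deposited counts of the 4 adult globin genes in each sample, stacked. Hbb-bt makes up the larger part of every WT bar (78 to 884 counts) and is nearly absent from the Pon2-/- bars, whereas the α-globin segments are small in both genotypes.

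The β-globin genes lie on chromosome 7 and Pon2 on chromosome 6. The genes around Hbb-bt were looked at after its values were seen. Of 68 other tested genes whose start lay within 5 Mb of that of Hbb-bt, 4 were called by edgeR and 6 did not overlap between genotypes, where 0.203% of all 11848 tested genes were called and 0.633% did not overlap. Trim12a, a TRIM family gene within 1 Mb, had mean levels of 66.8 CPM in WT and 0.062 CPM in Pon2-/- samples (edgeR FDR 2.35e-06), and its neighbour Trim5 had 13.02 and 0.888 CPM (edgeR FDR 0.0813). Trim34b, also within 1 Mb, went the other way, with 0.026 CPM in WT and 9.81 CPM in Pon2-/- samples (edgeR FDR 0.0529). The other called genes within 5 Mb were Gvin1, with means of 3.08 and 0 CPM (edgeR FDR 0.00527), Gm1966, with 40.2 and 1.997 CPM (edgeR FDR 0.00527), and 9130208D14Rik, with 0.016 and 3.09 CPM (edgeR FDR 0.00551). The β-globin locus is known to differ among inbred strains: C57BL/6 mice carry the haplotype with Hbb-bs and Hbb-bt, and other strains carry a haplotype with diverged adult genes in their place. The haplotype of these mice and its part in the Hbb-bt values were not tested.

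The region before the start site carries the motifs that erythroid factors use, and it is printed for both β-globins and for Hba-a1 because counts differed between these genes. The 250 bases upstream of the RefSeq start (GRCm38.p6) were searched on both strands for GATAA, the core of a GATA site, CACCC, the core bound by KLF1, and CCAAT and TATAA, the general promoter boxes. Matches are in capitals, and adjacent matches run together.
Hbb-bs, 7:103827929-103828178, minus strand: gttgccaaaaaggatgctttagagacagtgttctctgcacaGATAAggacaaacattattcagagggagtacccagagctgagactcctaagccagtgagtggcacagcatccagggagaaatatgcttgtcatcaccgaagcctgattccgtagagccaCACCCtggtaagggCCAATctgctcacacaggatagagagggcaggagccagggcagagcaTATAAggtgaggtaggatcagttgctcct
Hbb-bt, 7:103813924-103814173, minus strand: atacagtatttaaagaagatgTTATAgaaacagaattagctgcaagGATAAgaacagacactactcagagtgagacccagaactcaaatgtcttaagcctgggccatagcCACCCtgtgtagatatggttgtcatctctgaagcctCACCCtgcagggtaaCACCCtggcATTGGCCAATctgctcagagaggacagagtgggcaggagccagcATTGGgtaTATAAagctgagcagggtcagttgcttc
Hba-a1, 11:32283422-32283671, plus strand: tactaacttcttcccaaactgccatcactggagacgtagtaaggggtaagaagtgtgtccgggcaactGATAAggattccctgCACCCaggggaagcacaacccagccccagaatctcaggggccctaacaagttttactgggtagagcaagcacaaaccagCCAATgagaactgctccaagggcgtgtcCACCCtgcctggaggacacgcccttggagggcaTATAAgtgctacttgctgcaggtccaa

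All 4 globin regions held all 4 motifs, as did 0.968% of 32851 mouse promoters of the same length. Singly, the GATA core occurred in 22.6% of these promoters, the KLF1 core in 52%, the CCAAT box in 33.8% and the TATA box in 22.8%. Hbb-bs held each motif once, whereas Hbb-bt held the GATA core once, the KLF1 core and the CCAAT box 3 times each and the TATA box 2 times. Their GATA core started at -209 and -204 relative to the start, the KLF1 core nearest the start at -90 and -89, the forward CCAAT box at -76 and -75 and the TATA box nearest the start at -29 and -28. The aligned regions were 70.9% identical, against 97.6% for the α-globin pair. The α-globin regions had 0 mismatched bases, and their 6 gap positions came from an offset between the annotated starts. Of the other erythroid genes in the promoter table, Klf1 held the GATA core, the KLF1 core and the CCAAT box, Epor held the GATA core and the KLF1 core, and Gata1 held the KLF1 core only. Both Tfrc entries held the KLF1 core, 1 of them with a CCAAT box and the other with a TATA box. Car1 and Car2 were not in it.

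Scaled to exon length, the levels of the erythroid genes were far apart. Car2 had a median of 902 CPM per kb of exon over the 12 samples, above 99.8% of the tested genes, and its lowest sample was above the highest sample of every other erythroid gene. Hbb-bt came next with 5.13 CPM per kb, a median that joins 39.9 in WT with 0 in Pon2-/- samples. Epor (4.596), Tfrc (2.57), Gata1 (1.17), Hba-a1 (1.07), Hba-a2 (0.63), Hbb-bs (0.58), Klf1 (0.34) and Car1 (0) followed. Below Car2 each gene's range over samples overlapped that of its neighbour in this order, so their order is not resolved beyond the spread between samples. The 8 low genes with counts had medians above those of at most 43.0% of the tested genes. The globins were scaled to their full exon length, although reads shared within a pair are not counted. Their levels per kb are therefore likely too low beside those of the other genes, by an amount that was not measured.

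**Figure D3:**
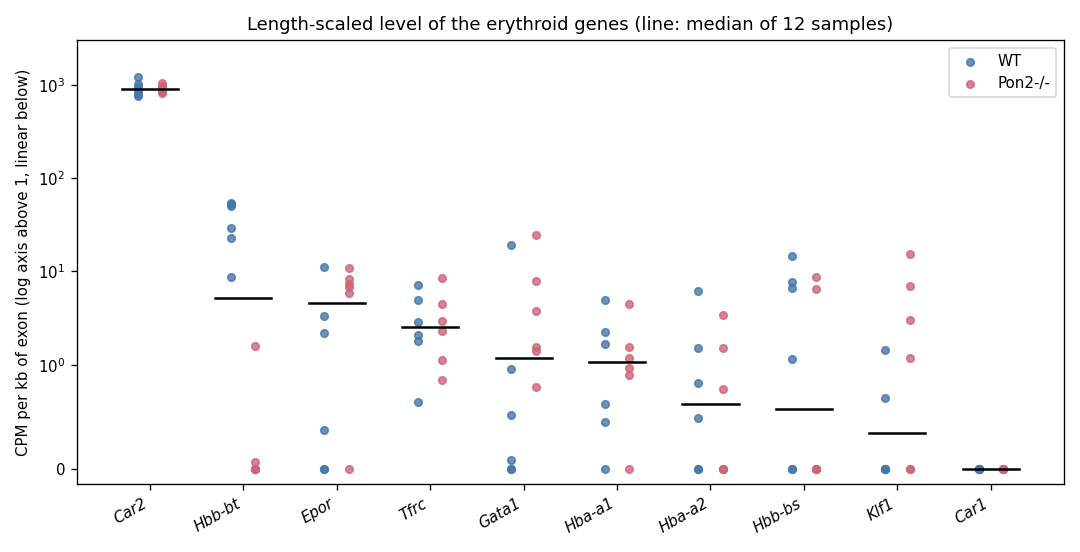
Level of each erythroid gene in CPM per kb of exon in the 12 samples, on an axis that is logarithmic above 1 and linear below. Car2 lies between 757 and 1210 CPM per kb in all samples, and every other gene lies at or below 54.1.

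The other genes of red cell formation were taken as 7 lists. With 0.203% of all tested genes called, 0 calls are usual for lists of this size and say little about them. Of 6 further globin genes found, the embryonic Hba-x, Hbb-bh1, Hbb-y and Hbb-bh2 among them, all were at 0 in the 12 samples. Of 16 red cell membrane genes, 6 were at 0 in every sample, including Slc4a1, the band 3 anion exchanger, and only 3 were high enough to be tested. Gypc, which is also made by other blood cells, had medians of 136 CPM in WT and 139 CPM in Pon2-/- samples, and Epb41 of 58.0 and 90.1 CPM. Of the 9 erythroblast markers found, 3 were at 0 in every sample, Slc4a1 and Ermap among them. The marker sum ran from 37.7 to 138 CPM in WT and from 24.5 to 97.7 CPM in Pon2-/- samples, most of it Hemgn with medians of 65.7 and 34.2 CPM, a gene that stem cells also express.

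The list of 16 erythroid transcription factors and cofactors was well expressed, with a sum of 1871 to 2607 CPM in WT and 2268 to 2834 CPM in Pon2-/- samples. All 16 were tested, 0 were called, 8 had fitted changes above 0 and 8 below, and the median log2 fold change was 0.03 against -0.01 for all tested genes. Lmo2, a bridging cofactor of the GATA and TAL1 complex, had medians of 420 CPM in WT and 443 CPM in Pon2-/- samples, Nfe2 of 448 and 486 CPM, Lyl1 of 310 and 404 CPM, and Bcl11a, a repressor of embryonic globins, of 166 and 175 CPM. The unadjusted p was below 0.05 for Sox6, another repressor of embryonic globin, with medians of 54.0 CPM in WT and 150 CPM in Pon2-/- samples (log2 fold change 1.48, SE 0.38, edgeR FDR 0.453). Sox6 was picked from its list after its values were seen.

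Of 12 haem synthesis genes all were tested and 0 were called (0.203% of all tested genes were), with a median log2 fold change of 0.09. Ppox, the protoporphyrinogen oxidase of the late pathway, was the only listed gene outside the 10 whose genotypes did not overlap (0.633% of all tested genes did not). It is named for that reason. WT samples ranged from 56.8 to 107 CPM with a median of 64.6 CPM, and Pon2-/- samples from 8.37 to 55.6 CPM with a median of 12.7 CPM (edgeR log2 fold change -1.70, SE 0.49, FDR 0.752). Counted without strand, 791 of its 4515 exon bases are shared with B4galt3 on the other strand. The other steps overlapped between genotypes. Alad had medians of 170 CPM in WT and 142 CPM in Pon2-/- samples, Urod of 143 and 163 CPM, and the mitochondrial transporter gene Tmem14c of 130 and 114 CPM. Alas2, the erythroid form of the first enzyme of the pathway, was low, with medians of 1.32 and 1.48 CPM. It had counts in 3 WT and 4 Pon2-/- samples, with highest values of 11.35 CPM in WT and 4.21 CPM in Pon2-/- samples.

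Among 12 iron genes 0 were called, and the median log2 fold change was -0.20. The ferritin heavy chain gene Fth1 had medians of 2581 CPM in WT and 2420 CPM in Pon2-/- samples. The ferritin light chain gene Ftl1 had medians of 741 and 512 CPM (edgeR log2 fold change -0.52, SE 0.17, unadjusted p 0.00747, FDR 1.0). Of its 1340 exon bases, 464 are shared with the annotated genes Gm10252 and Gm22133. Its reads may also be divided with near-identical processed copies, which was not measured. Tfr2, the second transferrin receptor, had medians of 119 and 131 CPM, and Ireb2 of 39.4 and 48.0 CPM. In the EPO receptor signalling list 11 of 12 genes were tested and 0 were called, with a median log2 fold change of -0.11. Ptpn6, a phosphatase that turns the receptor off, had medians of 404 CPM in WT and 416 CPM in Pon2-/- samples, the target Cish of 58.5 and 55.1 CPM, Socs2 of 76.0 and 61.3 CPM, and Stat5a of 63.1 and 58.4 CPM. Stat5b, picked after its values were seen, had medians of 37.1 and 58.9 CPM (edgeR log2 fold change 0.86, SE 0.35, unadjusted p 0.0267, FDR 1.0).

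**Figure D4:**
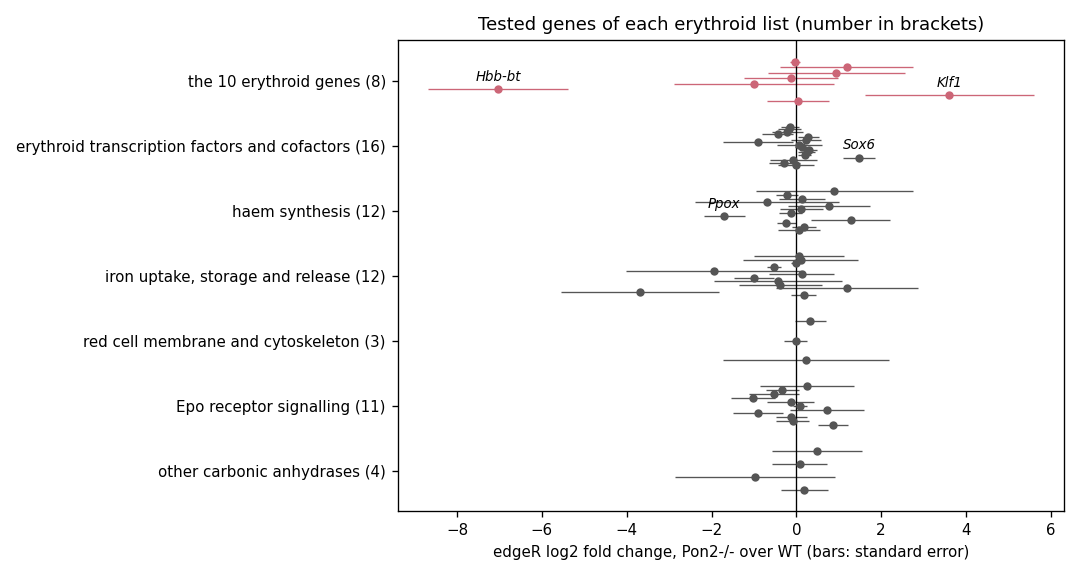
Fitted log2 fold change (Pon2-/- over WT) with standard error for each tested gene of the erythroid lists, 8 of them from the 10 genes described here (red). Hbb-bt (-7.04), Klf1 (3.60), Ppox (-1.70) and Sox6 (1.48) are named in the plot. Of the genes shown 0 were called, where 0.203% of all tested genes were called.

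The tested genes whose log2 CPM followed an erythroid gene most closely over the 12 samples were Ormdl1 (r = 0.946), Muc13 (0.914) and Pdlim1 (0.889) for Gata1, Taco1 (0.869), C030037D09Rik (0.815) and Zfp7 (0.813) for Klf1, and Mat2b (0.938), Mtx2 (0.833) and Pqlc1 (0.829) for Car2. For the summed adult globins they were Hoxb6 (0.946), Ggps1 (0.918) and Slc22a21 (0.916). These are Pearson coefficients over 12 libraries of both genotypes, the highest of 11848 genes, and they are given as a description. Among the erythroid genes themselves the highest coefficient was 0.663, for Gata1 and Car2. It was taken from far fewer pairs, so it cannot be compared with the coefficients above.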

How the data were processed

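RNA-seq counts per gene were deposited for 12 samples, 1 file per mouse, as raw counts without normalization. According to the labels and the study's methods, the authors checked reads with FastQC 0.11.5, trimmed them with Trimmomatic 0.36, mapped them to GRCm38.p5 with STAR 2.5.3a and counted them on GENCODE M12. The first count column was used and taken as STAR's unstranded count, so reads of overlapping antisense genes cannot be separated. STAR's gene counts leave out reads that map to several places. The read length is not given in the sources used here. Rows naming no gene held 0 counts. Symbols, positions and lengths came from GENCODE M21, in which 49326 genes were named.

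Genotypes came from the labels, which name separate mice. Counts were compared in R 4.3.3 with edgeR 4.0.16 (TMM, filterByExpr, glmQLFit, glmQLFTest, genotype only), and a call needed a fold change above 2 in either direction and an FDR (Benjamini-Hochberg) under 0.05. The procedure was tested on simulated data. CPM use TMM-scaled libraries. Log2 CPM, with a prior count of 2, were compared for the 10 genes and Pon2 by two-sided exact permutation tests over 924 relabellings, without adjustment. Alternatives used DESeq2 1.42.0, limma 3.58.1 voom with quality weights, DESeq2 size factors, other filters, robust estimation, a replicate block, summed globin pairs and each sample left out. The exclusion of 4 libraries over 5000 CPM of granulocyte markers and the β-globin shares with a sample left out were chosen after seeing the data. Named genes were the 10 erythroid genes, Pon2, and of each list the called genes, those without overlap and the 4 with the highest mean CPM, plus the 3 tested genes most correlated with Gata1, Klf1, Car2 and the summed globins. The erythroid genes and lists were chosen with earlier results of these data known. No entry for the globin chaperone gene Ahsp was found, and it was not analysed here. Promoter sequences are RefSeq's (GRCm38.p6) and matched 8 of the 10 genes. Some genes that this naming rule takes are not reported here.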

Additional observations from a re-analysis of the deposited data

Results flagged for a closer look

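In 18 groups of 6 samples with counts, 2 samples of the erythroid genes lay apart from the rest of their genotype by Dixon's criterion on log2 CPM. Chance exceeds it in about 1 in 20 groups of normally distributed values. Samples with 0 counts all take the same lowest log2 CPM, so that rate need not hold here. Epor in Pon2-/- replicate 3 was at 0 CPM, where the other Pon2-/- samples lay between 11.6 and 21.6 CPM (Dixon ratio 0.883). Hbb-bt in Pon2-/- replicate 4 was at 1.11 CPM, from 16 counts, where the other Pon2-/- samples had 0 or 1 counts (Dixon ratio 0.853).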

How the results depend on the processing

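The number of erythroid genes called was 0 in the main fit and 1, Hbb-bt, with the filter of 10 counts in every sample of a genotype (log2 fold change -7.05), with DESeq2 (-7.07), with limma voom (-8.42) and without Pon2-/- replicate 4 (-10.58). With a sample left out, Hbb-bt ranged from -10.58 to -6.77 and the number of erythroid genes called from 0 to 1. All genes called numbered 24 in the main fit, 8 without a filter, 5 without the libraries rich in granulocyte markers, 305 with DESeq2 and 20 to 28 with a sample left out. Labels share replicate numbers, but same-numbered deviations correlated at 0.001 to 0.043 and only replicate 2 matched its own number best. With the replicate block, 5 genes and 0 erythroid genes were called, and Hbb-bt had a log2 fold change of -9.96 (FDR 0.493). Signs turned for genes that were not called: Car2 0.061 without WT replicate 1 (-0.083 to 0.061 with a sample left out); Gata1 -0.18 without Pon2-/- replicate 1 (-0.18 to 4.41); Hba-a1 0.60 without WT replicate 2, 0.14 without Pon2-/- replicate 6 and 0.19 with limma voom (-0.85 to 0.60); Tfrc without WT replicates 2 (-0.17), 3 (-0.08) or 5 (-0.06) or Pon2-/- replicates 3 (-0.06) or 5 (-0.49), within -0.49 to 0.44. Without the granulocyte-rich libraries Gata1 was -1.14 and Hba-a1 0.066. The cause was not tested. The summed globins were 29.4 to 36.8 CPM in WT and 2.85 to 4.64 CPM in Pon2-/- samples with a sample left out, and other scalings moved them less. Low counts limit all erythroid genes except Car2, and near-identical copies limit the globins.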
